A study of Homo sapiens with 28 samples.

Results

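The glycolysis, glycogen and lactate genes are 35 named genes that carry glucose from the cell surface to lactate, or into and out of glycogen. They were taken by symbol from the deposited RNA-Seq tables of PC3 and LNCaP cells, where all 35 were found among 19662 gene symbols. The study asked how ONECUT2, a transcription factor of the onecut family, acts on gene expression in prostate cancer cells with and without low oxygen. PC3, an androgen receptor negative prostate cancer line, was transfected with a control siRNA (siCtrl) or with siRNAs against ONECUT2 (siOC2), siRNA1 in replicate 1 and siRNA2 in replicate 2. LNCaP, an androgen receptor positive line, carried an empty vector (EV) or a vector for Flag-tagged ONECUT2 (OC2). Each line was kept in normoxia or in hypoxia at 0.2% oxygen, which gives 4 groups per line with 2 libraries each and 16 libraries in all. For the siCtrl, EV and OC2 groups nothing in the labels says that the 2 libraries came from separate cultures. The P-values measure the spread between the libraries of a group, which may be technical in these groups. In the siOC2 groups the 2 libraries differ in their siRNA. The groups of a line share 1 estimate of the spread, so this difference between siRNAs enters the P-values of every PC3 comparison.

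Glycolysis splits glucose into pyruvate in the cytosol, and lactate dehydrogenase turns pyruvate into lactate so that glycolysis can run on without oxygen. Inside mitochondria pyruvate dehydrogenase turns pyruvate into acetyl-CoA instead, and its kinases, the PDK enzymes, switch it off. Many genes of this route are known targets of the hypoxia-inducible factor HIF1, which binds short DNA motifs near its target genes, and glycogen is a glucose store whose enzymes are also known to respond to low oxygen. Prostate cancer lines express several isozymes for most steps, coded by separate genes, so each step is described isozyme by isozyme.

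Transcript levels are given as RPKM, that is, reads scaled to transcript length and to the mapped reads of a library, for replicate 1 and then replicate 2. Differences are on the log2(RPKM + 0.1) scale with their standard error (SE), from limma, and adjusted p-values are by the Benjamini-Hochberg method over all genes tested. ONECUT2 itself was at 1.77 and 1.16 RPKM with siCtrl in normoxia, while with siOC2 it had 0.276 and 0.204 RPKM, a log2 difference of 2.18 (SE 0.65). It reached the 1 RPKM needed for testing only in those siCtrl libraries, the group where it is high, so this difference is a description. In hypoxia it was at 0.648 and 0.550 RPKM with siCtrl and 0.125 and 0.214 RPKM with siOC2, where the difference of 1.39 (SE 0.65) did not pass the test (unadjusted P = 0.0639 in limma). In LNCaP cells ONECUT2 was at 2.89 and 7.86 RPKM with EV in normoxia and at 11.5 and 3.09 RPKM in hypoxia, and the OC2 libraries hold no value for it, so the overexpression cannot be checked from the table. Of 8 genes known to be induced by hypoxia, 7 rose in siCtrl cells (fold over 2 at an unadjusted P under 0.05 in limma), beside 2.23% of all genes. All 6 that were tested in LNCaP rose in EV cells by the same rule, beside 5.6%. Such genes may reach the 1 RPKM needed for testing through hypoxia alone, so these counts are a description. Marker genes of the other line had low sums. The 8 LNCaP markers summed to between 8.11 and 15.7 RPKM in PC3 libraries and to between 3066 and 6274 RPKM in LNCaP libraries. The 8 PC3 markers summed to between 597 and 1771 RPKM in PC3 libraries and to between 30.04 and 65.9 RPKM in LNCaP libraries. Among the LNCaP markers, KLK3, KLK2 and FOLH1 stayed under 1 RPKM in every PC3 library. In LNCaP libraries 4 of the 8 PC3 markers stayed under 1 RPKM throughout. The depth of a PC3 library, estimated from the steps between low values relative to siCtrl normoxia replicate 2, was 0.418 or less in 3 libraries (siCtrl normoxia replicate 1, siCtrl hypoxia replicate 2 and siOC2 hypoxia replicate 1) and at least 0.877 in the others. In LNCaP cells, relative to EV normoxia replicate 2, it was between 0.548 and 1.

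To show what lies upstream of the genes that responded and of isozymes that did not, promoter sequences were read from RefSeq (GRCh38.p14) for 32 of the 35 genes. Entries were missing for SLC2A3, PFKFB2 and SLC16A1. Each window holds the 250 bases before an annotated start, and a gene can have more than 1 window. The letters searched were ACGTG and GCGTG on both strands, the core of the hypoxia response element, and CACGTG, the E-box, which holds the first core on both strands. The cores were found in 35 of 63 windows of the members (55.6%) and in 43.2% of 35116 windows of all genes, ACGTG alone in 34.9% and 18.5%, and the E-box in 12.7% and 6.34%. The isozyme pairs LDHA and LDHB, and PDK1 and PDK2, are printed as examples in which the first rose in hypoxia in both lines while the second did not pass the test in either. PFKP beside PFKM and PFKL met the same rule and is not printed. PFKM and PFKL did not pass in either line, yet each holds a match, with first bases at -122 and -164. SLC2A1, which rose in both lines, holds none in the windows read. Matches were thus also found in genes that did not pass, and their part in the responses was not tested. Capitals mark the stretches covered by a core.

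LDHA, chr11:18394313-18394562, plus strand: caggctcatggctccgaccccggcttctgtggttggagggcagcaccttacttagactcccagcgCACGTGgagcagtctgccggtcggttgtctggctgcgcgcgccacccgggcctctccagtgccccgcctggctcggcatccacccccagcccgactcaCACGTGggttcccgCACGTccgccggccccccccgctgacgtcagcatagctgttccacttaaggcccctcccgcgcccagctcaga
LDHB, chr12:21657843-21658092, minus strand: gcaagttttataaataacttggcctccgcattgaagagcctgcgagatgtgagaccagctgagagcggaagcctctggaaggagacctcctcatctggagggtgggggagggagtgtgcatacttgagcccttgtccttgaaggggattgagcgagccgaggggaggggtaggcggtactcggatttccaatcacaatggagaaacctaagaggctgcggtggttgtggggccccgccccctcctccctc
PDK1, chr2:172555840-172556089, plus strand: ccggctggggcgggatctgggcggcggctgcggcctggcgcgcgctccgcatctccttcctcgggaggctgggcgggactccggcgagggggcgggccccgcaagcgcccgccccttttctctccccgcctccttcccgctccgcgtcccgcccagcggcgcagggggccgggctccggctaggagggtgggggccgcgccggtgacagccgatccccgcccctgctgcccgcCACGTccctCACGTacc
PDK2, chr17:50095101-50095350, plus strand: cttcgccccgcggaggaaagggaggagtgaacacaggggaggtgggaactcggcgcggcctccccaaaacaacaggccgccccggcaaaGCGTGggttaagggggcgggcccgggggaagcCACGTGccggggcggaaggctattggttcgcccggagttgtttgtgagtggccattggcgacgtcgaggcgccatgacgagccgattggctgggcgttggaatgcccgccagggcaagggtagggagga

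The LDHA window holds 5 matches when each strand is counted, 4 of them in 2 E-boxes, and the LDHB window holds none. The PDK1 window holds 2 cores within 20 bases of the start. The PDK2 window also holds 3 matches, 2 of them in an E-box. For a gene with several windows the one with the most matches is printed. The other LDHA window holds 1 match, and the other PDK1 window and the other 2 PDK2 windows hold 0. In the build of the expression tables (GRCh37), LDHA lies at chr11:18416107-18429972 and LDHB at chr12:21788276-21910791. PDK1 lies at chr2:173420101-173473397 and PDK2 at chr17:48172101-48189516 in the same build.

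The first comparison asked how the route as a whole responded to hypoxia in control cells. In PC3 siCtrl cells 18 of 33 members tested rose and none fell, that is, their fold change was over 2 at an unadjusted P under 0.05 in limma. Over all 12214 genes tested, 2.23% rose and 1.63% fell by the same rule. In LNCaP EV cells 20 of 33 members rose and none fell, against 5.6% and 2.34% of 12283 genes. The median log2 fold change of the members was 1.18 in PC3 and 1.22 in LNCaP, beside medians of -0.07 and 0.02 for all genes. In PC3 only PFKFB4 and PGK1 had an adjusted p under 0.05 in limma, as had 33 genes in all, each higher (0.27%). In LNCaP 25 members had an adjusted p under 0.05, all higher, beside 18.2% of genes higher and 14.1% lower. By upper-quartile scaling the LNCaP counts over all genes were 1812 higher and 2341 lower in place of 2241 and 1732.

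The libraries are of bulk RNA, so more transcript per cell and more cells with a transcript cannot be told apart. The summed RPKM of the 35 members was between 1.24% and 1.27% of the total in siCtrl libraries in normoxia and between 2.33% and 2.42% in hypoxia. In EV libraries it was between 0.832% and 0.881% in normoxia and 2.01% and 2.02% in hypoxia. GAPDH was the most abundant member in the control libraries in normoxia of both lines, at 1545 and 1711 RPKM in PC3 and 1281 and 1703 RPKM in LNCaP. The tables of the lines were made separately and their totals differ, so levels were not tested between lines.

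**Figure D1:**
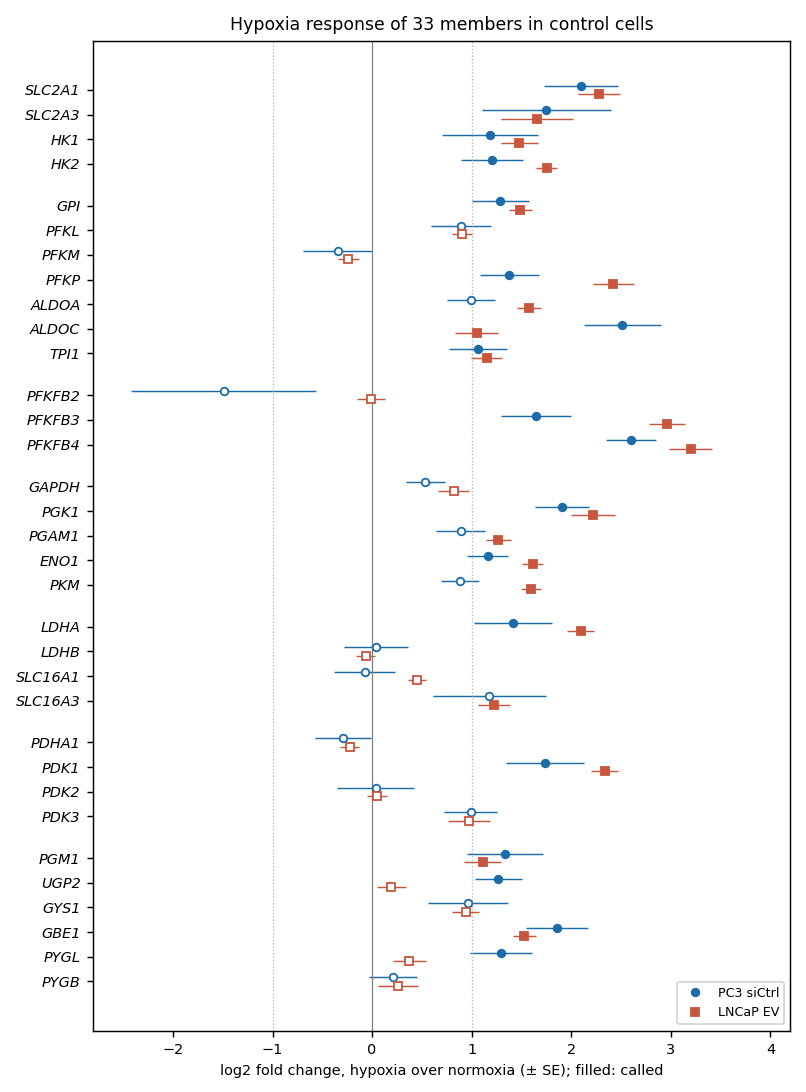
Log2 fold change of hypoxia over normoxia (x axis, with SE bars) for the 33 members tested (y axis, in the order of the route), in PC3 siCtrl cells (circles) and LNCaP EV cells (squares). Filled symbols passed the test (fold over 2, shown by dotted lines, and unadjusted P under 0.05). All 4 genes of uptake and phosphorylation are filled in both lines, while PFKM, LDHB, PDHA1 and PDK2 lie near 0 or below it.

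Glucose uptake and phosphorylation rose in both lines, 4 of 4 genes in each. SLC2A1, the main basal glucose transporter GLUT1, was at 16.3 and 17.3 RPKM in siCtrl libraries in normoxia and at 70.9 and 73.3 RPKM in hypoxia (4.28-fold higher). In EV libraries it was at 9.24 and 14.1 RPKM in normoxia and 55.7 and 56.04 RPKM in hypoxia (4.86-fold higher). The groups did not overlap in either line, a split that was not counted over all genes. The log2 fold changes of 2.1 (SE 0.37) in PC3 and 2.28 (SE 0.21) in LNCaP were close to each other. SLC2A3, the high-affinity transporter GLUT3, was scarce, at 0.607 and 0.264 RPKM in siCtrl libraries in normoxia and 1.44 and 1.79 RPKM in hypoxia. In EV libraries SLC2A3 was at 0.202 and 0.455 RPKM in normoxia and 1.17 and 1.21 RPKM in hypoxia. It rose by 1.75 (SE 0.65) and 1.65 (SE 0.36) on the log2(RPKM + 0.1) scale, a scale that understates the change of a gene this low. In LNCaP SLC2A3 reached the 1 RPKM needed for testing only in hypoxic libraries, so its difference there, and its place in the LNCaP counts, is a description. With a pseudocount of 1 the call was lost in PC3 (0.87) and in LNCaP (0.73), and in PC3 it was also lost without siCtrl normoxia replicate 2 (1.27), siCtrl hypoxia replicate 1 (1.90) or siCtrl hypoxia replicate 2 (1.61). The values of SLC2A3 may include reads of the near-identical SLC2A14.

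Hexokinases trap glucose in the cell as glucose 6-phosphate. HK1, the broadly expressed isozyme, was at 4.87 and 4.03 RPKM in siCtrl libraries in normoxia and 10.4 and 10.1 RPKM in hypoxia. In EV libraries HK1 was at 110.0 and 90.4 RPKM and rose to 246 and 313 RPKM. HK2, the inducible isozyme common in tumors, went from 6.19 and 5.69 RPKM to 15.5 and 12.3 RPKM in siCtrl libraries. In EV libraries HK2 went from 15 and 13.1 RPKM to 47.7 and 47.5 RPKM. Both isozymes rose in each line, with log2 fold changes of 1.19 (SE 0.48) and 1.20 (SE 0.32) in PC3 and of 1.48 (SE 0.18) and 1.76 (SE 0.11) in LNCaP. The HK1 call in PC3 was lost when any one of the 4 siCtrl libraries was left out, with log2 fold changes from 1.06 to 1.32 and an unadjusted P over 0.05 each time.

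In upper glycolysis 4 of 7 genes rose in PC3 and 5 of 7 in LNCaP. GPI, which turns glucose 6-phosphate into fructose 6-phosphate, was at 30.99 and 32.8 RPKM in siCtrl libraries in normoxia and 81.97 and 74.2 RPKM in hypoxia. In EV libraries GPI was at 148 and 164 RPKM in normoxia and 433 and 441 RPKM in hypoxia. It rose by 1.29 (SE 0.29) on the log2 scale in PC3 and by 1.49 (SE 0.12) in LNCaP. Of the 3 isozymes of phosphofructokinase, the committed step, PFKP alone passed the test. PFKP, the platelet isozyme, went from 44 and 43.4 RPKM to 127 and 102 RPKM in siCtrl libraries. In EV libraries PFKP went from 31.3 and 42.7 RPKM to 198 and 194 RPKM. The liver isozyme PFKL was 1.86-fold higher in PC3 (unadjusted P = 0.0166 in limma) and 1.87-fold higher in LNCaP (adjusted p = 5.23e-04 in limma), under the limit of 2. The muscle isozyme PFKM had log2 fold changes of -0.35 (SE 0.34) and -0.24 (SE 0.10) and did not pass the test in either line.

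The aldolases and triose phosphate isomerase followed. ALDOA, the ubiquitous aldolase, was at 564 and 563 RPKM in siCtrl libraries in normoxia and 1147 and 1100.5 RPKM in hypoxia, 1.99-fold and just under the limit of 2. In EV libraries ALDOA rose from 847 and 1071 RPKM to 2869 and 2805 RPKM. ALDOC, the brain-type aldolase, rose from 2.83 and 2.05 RPKM to 13.8 and 14.7 RPKM in siCtrl libraries. Its log2 fold change of 2.51 (SE 0.39) was the second highest among the members in PC3. In EV libraries ALDOC rose from 29.8 and 50.7 RPKM to 79.6 and 81.5 RPKM, a log2 fold change of 1.05 (SE 0.22). That call rests on 1 library, since without EV normoxia replicate 1 the log2 fold change was 0.67 and it was lost. TPI1, which interconverts the triose phosphates, rose from 402 and 425 RPKM to 893 and 835 RPKM in PC3. In LNCaP TPI1 rose from 591 and 760.3 RPKM to 1535 and 1440.0 RPKM, a call that was lost without EV normoxia replicate 1 (0.97).

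The highest fold change in each line was that of an enzyme that makes and breaks fructose 2,6-bisphosphate, the activator of phosphofructokinase, and 2 of 3 such genes rose in each line. PFKFB4 rose from 13.6 and 13.6 RPKM to 91.1 and 75.95 RPKM in siCtrl libraries, 6.07-fold, with an adjusted p of 0.00621 in limma. In EV libraries PFKFB4 rose from 8.45 and 7.98 RPKM to 81.97 and 71.1 RPKM, 9.20-fold. The hypoxic and normoxic libraries were far apart in both lines. PFKFB3, whose kinase activity far exceeds its phosphatase activity, rose from 7.80 and 6.08 RPKM to 23.8 and 20 RPKM in PC3. In LNCaP PFKFB3 rose from 6.83 and 7.45 RPKM to 57.3 and 55.1 RPKM. PFKFB2, the heart isozyme, did not pass the test. Its values were 2.44 and 0.827 RPKM in siCtrl libraries in normoxia and 0.545 and 0.362 RPKM in hypoxia, and 6.19 and 5.65 RPKM and 5.62 and 6.13 RPKM in EV libraries.

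In lower glycolysis 2 of 5 genes rose in PC3 and 4 of 5 in LNCaP. PGK1, which makes the first ATP of the payoff phase, rose from 22.6 and 30.7 RPKM to 112 and 87.8 RPKM in siCtrl libraries. In EV libraries PGK1 rose from 386 and 421 RPKM to 1969 and 1795 RPKM. The log2 fold changes were 1.91 (SE 0.27) (adjusted p = 0.0357 in limma) and 2.22 (SE 0.22) (adjusted p = 3.35e-04). ENO1, the housekeeping enolase, rose from 440.4 and 473 RPKM to 1110.4 and 939 RPKM in PC3. In LNCaP ENO1 rose from 484 and 502 RPKM to 1543 and 1474 RPKM. The other 3 genes of this group were higher in both hypoxic than in both normoxic control libraries of each line, a split that was not counted over all genes. None of the 3 reached a fold of 2 in PC3. PGAM1, phosphoglycerate mutase, was at 47.3 and 56.1 RPKM in siCtrl libraries in normoxia and 98.1 and 92.8 RPKM in hypoxia, and rose from 106 and 122 RPKM to 281 and 266 RPKM in EV libraries. PKM, pyruvate kinase, was at 888 and 922 RPKM and 1809.7 and 1545 RPKM in siCtrl libraries, and rose from 589 and 574 RPKM to 1791 and 1728 RPKM in EV libraries. GAPDH, often used as a reference gene, was 1.45-fold higher in PC3 hypoxia and 1.77-fold higher in LNCaP hypoxia, at 2409 and 2303 RPKM and 2635 and 2580.0 RPKM. Several genes of this group and of the aldolases have processed pseudogenes, and how reads shared with those were counted is not given in the sources used here.

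Lactate genes split between isozymes. LDHA, the subunit that favors lactate production, rose from 865 and 917 RPKM to 2662 and 2111 RPKM in siCtrl libraries (2.66-fold). In EV libraries LDHA rose from 1048 and 1005 RPKM to 4379 and 4382 RPKM (4.27-fold). LDHA was then the most abundant member in both hypoxic EV libraries. LDHB, the heart subunit, was at 289.9 and 278 RPKM in siCtrl libraries in normoxia and 323 and 263 RPKM in hypoxia, where the groups overlap. In EV libraries LDHB was at 497 and 508 RPKM and 468 and 491 RPKM. Of the monocarboxylate transporters, SLC16A3 (MCT4), the lactate exporter of glycolytic cells, rose in LNCaP from 2.60 and 2.54 RPKM to 6.70 and 5.62 RPKM. In siCtrl libraries SLC16A3 was at 12.1 and 7.52 RPKM in normoxia and 23.6 and 19.97 RPKM in hypoxia, a log2 fold change of 1.18 (SE 0.57) that did not pass (unadjusted P = 0.0708 in limma). SLC16A1 (MCT1), the widely expressed transporter, had log2 fold changes of -0.07 (SE 0.30) in PC3 and 0.45 (SE 0.09) in LNCaP, the latter with an adjusted p of 0.00750 in limma but under the limit of 2.

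At the branch to mitochondria 1 of 4 genes tested rose in each line. PDK1 rose from 12.2 and 10.6 RPKM to 42.2 and 34.6 RPKM in siCtrl libraries and from 13.5 and 10.1 RPKM to 59.9 and 59.1 RPKM in EV libraries. Its fold changes were 3.34 and 5.05. PDK2 was between 21.2 and 31.2 RPKM in siCtrl libraries and between 60.8 and 67.8 RPKM in EV libraries. PDK3 was 1.99-fold higher in PC3 and 1.96-fold higher in LNCaP, both just under the limit of 2, with an unadjusted P of 0.00560 and an adjusted p of 0.0102 in limma. PDHA1, the target subunit of these kinases, had log2 fold changes of -0.29 (SE 0.28) and -0.23 (SE 0.10). PDK4 was not tested, because it was between 0.297 and 1.07 RPKM in PC3 libraries and at most 0.113 RPKM in LNCaP libraries.

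**Figure D2:**
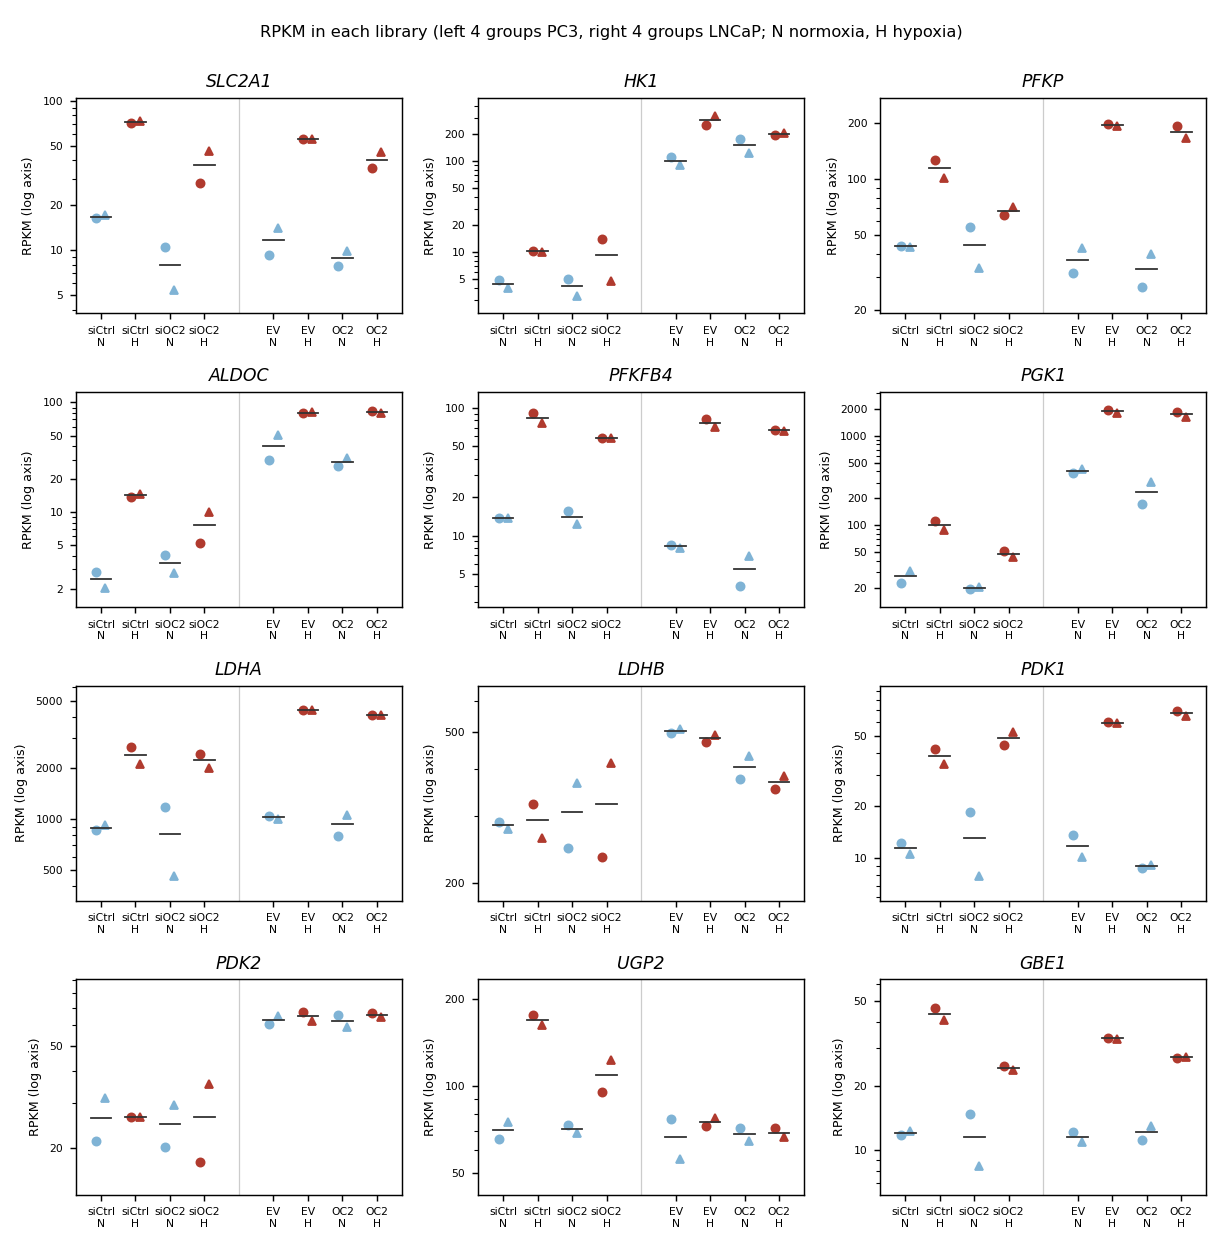
RPKM of 12 members in each library (log y axes), with PC3 groups left of the vertical line and LNCaP groups right of it. Circles are replicate 1, triangles replicate 2, bars group means, blue normoxia (N) and red hypoxia (H). SLC2A1, PFKFB4, PGK1, LDHA and PDK1 are higher in every hypoxic library than in every normoxic library of the same line, LDHB and PDK2 are not, and UGP2 is higher in hypoxia only in PC3.

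The glycogen genes rose in part, 4 of 6 tested in PC3 and 2 of 6 in LNCaP. PGM1, which links glucose 6-phosphate and glucose 1-phosphate, rose from 11.7 and 12.5 RPKM to 34.5 and 27.3 RPKM in siCtrl libraries, a call that was lost without siCtrl hypoxia replicate 1 (1.16). In EV libraries PGM1 rose from 9.93 and 15.5 RPKM to 27.2 and 26.7 RPKM, and the call was lost without EV normoxia replicate 1 (0.79). GBE1, the branching enzyme, rose from 11.8 and 12.2 RPKM to 46.5 and 41.01 RPKM in PC3 and from 12.2 and 10.9 RPKM to 33.5 and 33.4 RPKM in LNCaP. With 3.61-fold and 2.89-fold it had the largest change of the glycogen genes in both lines. UGP2, which makes UDP-glucose, rose from 65.4 and 75.3 RPKM to 176 and 163 RPKM in PC3. In EV libraries UGP2 was at 77.1 and 55.8 RPKM in normoxia and 72.6 and 77.5 RPKM in hypoxia, and the groups overlap. PYGL, the liver-type glycogen phosphorylase, rose from 31.2 and 31.7 RPKM to 82.3 and 72.5 RPKM in PC3. In EV libraries PYGL was at 5.01 and 4.27 RPKM and 6.83 and 5.30 RPKM. The brain-type phosphorylase PYGB did not pass the test in either line, with log2 fold changes of 0.21 (SE 0.24) and 0.26 (SE 0.20). Glycogen synthase GYS1 was 1.95-fold higher in PC3 and 1.92-fold higher in LNCaP, under the limit of 2. PPP1R3C, which targets a phosphatase to glycogen, was at 0.0364 RPKM or less in all 16 libraries and was not tested.

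The make-up of the isozyme families, given here as shares of a family's summed RPKM, differed between normoxia and hypoxia. PFKM held 58.3% and 57.3% of phosphofructokinase transcripts in EV libraries in normoxia and 24.6% and 23.9% in hypoxia. PFKP took the larger share, with 56.9% and 55.8% after 19.3% and 23.3%. In siCtrl libraries PFKP went from 54.8% and 51.99% to 75.8% and 71.5%. The LDHA share of lactate dehydrogenase transcripts went from 74.9% and 76.7% to 89.2% and 88.9% in siCtrl libraries. In EV libraries the LDHA share went from 67.8% and 66.4% to 90.3% and 89.9%. Hypoxic libraries of both lines thus held close to the same LDHA share from different starting points. PDK1 held 17.1% and 12.6% of PDK transcripts in EV libraries in normoxia and 43.5% and 45.3% in hypoxia, and PDK2 held 76.9% and 81.4% and 49.2% and 48%. The hexokinase shares moved little in control cells, where both isozymes rose. HK1 held 44.01% and 41.5% of hexokinase transcripts in siCtrl libraries in normoxia and 40.2% and 44.97% in hypoxia, and 88% and 87.3% and 83.8% and 86.8% in EV libraries.

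**Figure D3:**
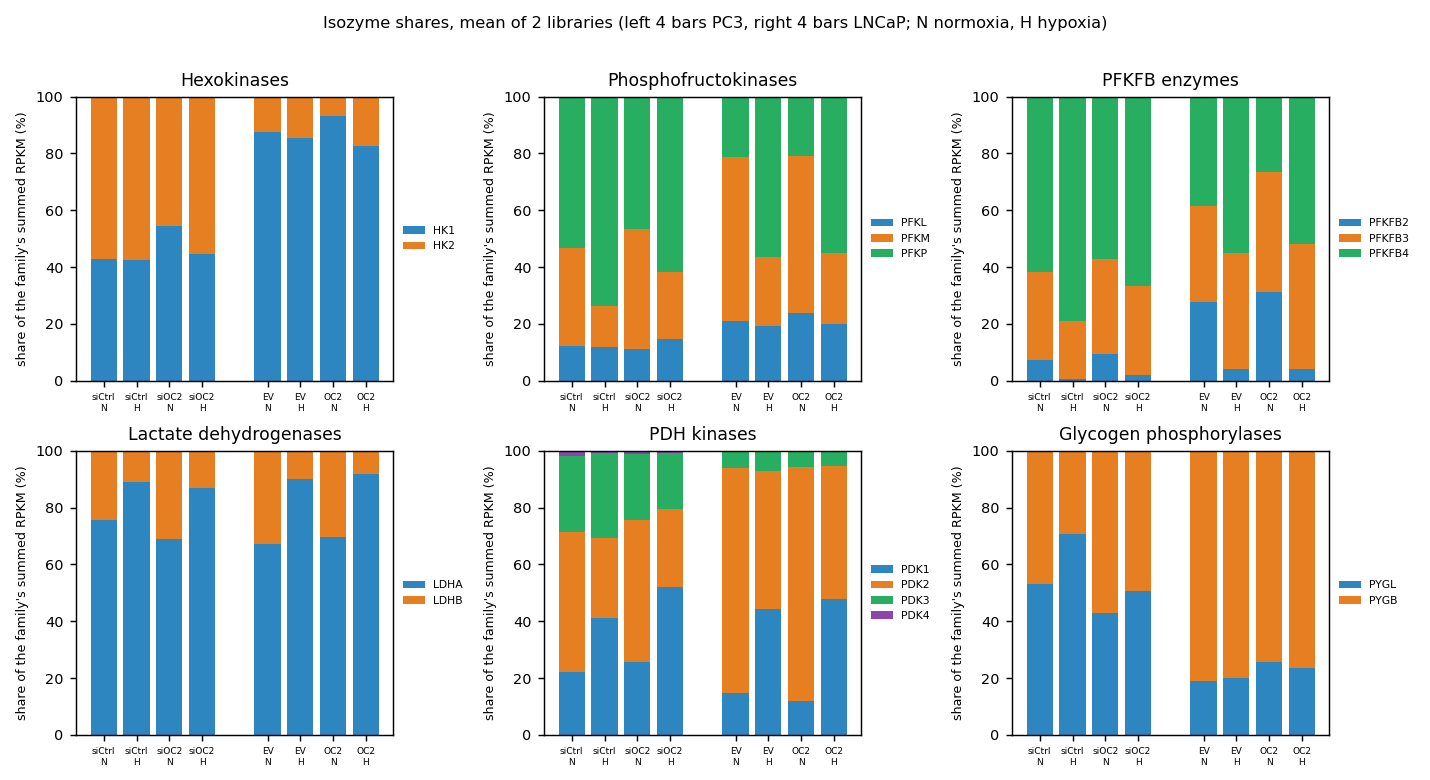
Share of each isozyme in the summed RPKM of its family (y axis, %), as the mean of 2 libraries per group, with PC3 groups on the left and LNCaP groups on the right (N normoxia, H hypoxia). PFKP, LDHA and PDK1 take larger shares in hypoxia in each of the 4 cell states, and the PYGL share goes from 53.3% to 70.8% in siCtrl cells but from 19.1% to 20.04% in EV cells.

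Of the 33 members, 16 rose in both lines, 2 passed in PC3 alone (UGP2 and PYGL), 4 in LNCaP alone (ALDOA, PGAM1, PKM and SLC16A3) and 11 passed in neither. Whether a response differed was tested in a fit over all 16 libraries, where 1.67% of 10948 genes had a larger and 4.76% a smaller response in PC3 siCtrl than in LNCaP EV cells. Among the members, 2 had a larger response in PC3 and 2 a smaller one, and none had an adjusted p under 0.05 in limma (0.228% of all genes with a larger and 0.63% with a smaller response). At an unadjusted P under 0.05, 3 had a larger and 3 a smaller response, beside 3.66% and 7.95% of all genes. UGP2 differed by 1.07 (SE 0.27) (adjusted p = 0.101 in limma) and ALDOC by 1.46 (SE 0.45) (adjusted p = 0.205). PFKFB3 differed by -1.31 (SE 0.41) (adjusted p = 0.203) and PFKP by -1.04 (SE 0.37) (adjusted p = 0.287). PYGL had a difference of 0.92 (SE 0.35) and PKM of -0.71 (SE 0.20) (unadjusted P = 0.0223 and 0.00353 in limma), under the limit of 2. For ALDOA, PGAM1 and SLC16A3 no difference between the lines passed, at -0.58 (SE 0.27), -0.38 (SE 0.26) and -0.05 (SE 0.66). The UGP2 difference was 0.97 without PC3 siCtrl normoxia replicate 1 and 0.84 without LNCaP EV normoxia replicate 1, and its call was then lost. PFKP lost its call without PC3 siCtrl hypoxia replicate 2 (-0.88) or LNCaP EV normoxia replicate 1 (-0.82).

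The same comparison was made in cells with altered ONECUT2. In siOC2 cells 11 of 33 members rose in hypoxia and none fell, where 1.11% of all genes rose and 2.35% fell. All 11 had also risen in siCtrl cells. The comparisons in siOC2 and in siCtrl cells share no library but do share the estimate of the spread, so they are not independent. The 7 that passed in siCtrl cells alone were HK1, GPI, PFKP, TPI1, PGM1, UGP2 and PYGL. The median of the members was 0.74 beside -0.22 for all genes, and no member had an adjusted p under 0.05 in limma, as 0.00819% of all genes had. At an unadjusted P under 0.05, 18 members were higher and none lower, where 1.83% of all genes were higher and 4.89% lower. The count depends on siOC2 normoxia replicate 2 (siRNA2), without which it was 7, and on siOC2 normoxia replicate 1 (siRNA1), without which it was 16.

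In siOC2 libraries SLC2A1 rose from 10.4 and 5.37 RPKM to 28.2 and 46.4 RPKM and SLC2A3 from 2.83 and 0.834 RPKM to 8.41 and 4.06 RPKM. HK2 rose from 4.16 and 2.85 RPKM to 8.96 and 11.97 RPKM, while HK1 was at 5.08 and 3.32 RPKM and 13.9 and 4.75 RPKM. The siRNAs differed for HK1, which was higher in hypoxia with siRNA1 than with siRNA2. PFKFB3 rose from 10.5 and 6.11 RPKM to 32.7 and 22.6 RPKM and PFKFB4 from 15.5 and 12.3 RPKM to 58.2 and 58.3 RPKM. ALDOC rose from 4.07 and 2.81 RPKM to 5.28 and 10.1 RPKM, PGK1 from 19.04 and 20.4 RPKM to 51.5 and 43.9 RPKM and ENO1 from 386 and 436 RPKM to 793 and 900.1 RPKM. In each of the members that rose in siOC2 cells both hypoxic libraries lay above both normoxic ones, a split that was not counted over all genes. LDHA rose from 1182 and 460.2 RPKM to 2435 and 1999 RPKM, PDK1 from 18.3 and 7.98 RPKM to 44.4 and 52.9 RPKM and GBE1 from 14.7 and 8.42 RPKM to 24.9 and 23.8 RPKM. LDHA in normoxia was lower with siRNA2 than with siRNA1, and without the siRNA2 library its log2 fold change was 0.90 and did not pass. Without that library GBE1 (0.73), ALDOC (0.83) and SLC2A3 (1.02) did not pass either. ALDOC (0.63) and ENO1 (0.95) lost their calls without siOC2 hypoxia replicate 2, ENO1 (0.95) without siOC2 normoxia replicate 1, and SLC2A3 (1.33) without siOC2 hypoxia replicate 1.

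The 7 members that passed in siCtrl cells alone had log2 fold changes between 0.59 (PGM1) and 0.97 (HK1) in siOC2 cells. GPI was at 28.3 and 31.6 RPKM in normoxia and 44.1 and 71.3 RPKM in hypoxia, and PFKP at 55.6 and 33.5 RPKM and 64.3 and 70.8 RPKM. TPI1 was at 421 and 237 RPKM and 457 and 596 RPKM, and UGP2 at 73.4 and 68.7 RPKM and 95.4 and 122 RPKM. For these 4 genes the groups did not overlap, but the share of all genes with such a split was not counted, and none of the 4 passed. PYGL was at 27.3 and 27.5 RPKM and 33.4 and 59.7 RPKM, and PGM1 at 36.3 and 17.1 RPKM and 44.4 and 31.8 RPKM, and here the groups of PGM1 overlap. ALDOA was at 678 and 445 RPKM and 908 and 1051 RPKM, PGAM1 at 57.02 and 48.7 RPKM and 77.6 and 100.1 RPKM, and PKM at 681 and 726 RPKM and 1121 and 1216 RPKM. SLC16A3 was at 17.7 and 4.49 RPKM in normoxia, where it was lower with siRNA2, and at 22.8 and 18.7 RPKM in hypoxia.

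In LNCaP OC2 cells 20 of 33 members rose in hypoxia and none fell by the same rule, where 5.48% of all genes rose and 1.36% fell. Of these, 19 had also risen in EV cells, with HK1 lost and GAPDH gained. The median of the members was 1.31, beside 0.09 for all genes. The 23 members higher at an adjusted p under 0.05 compare with 18.4% of all genes, and PDHA1 was the 1 member lower, at -0.34 (SE 0.10) (adjusted p = 0.0364 in limma), beside 8.49%. By upper-quartile scaling the counts over all genes at an adjusted p under 0.05 were 1609 higher and 1605 lower in place of 2261 and 1043. SLC2A1 rose from 7.85 and 9.86 RPKM to 35.7 and 45.2 RPKM, SLC2A3 from 0.308 and 0.377 RPKM to 0.960 and 1.44 RPKM and HK2 from 10.4 and 11.2 RPKM to 41.5 and 40.9 RPKM. HK1 was at 176 and 123 RPKM in normoxia and 195 and 201 RPKM in hypoxia, 1.35-fold. GPI rose from 113 and 139 RPKM to 664 and 622 RPKM, 5.11-fold. These genes pass glucose into the route, and HK1 alone among them did not pass.

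Further along the route, PFKP rose from 26.4 and 39.6 RPKM to 194 and 167 RPKM and ALDOA from 726 and 756 RPKM to 2968 and 2784 RPKM. ALDOC rose from 26.3 and 31.4 RPKM to 83.01 and 79.7 RPKM and TPI1 from 439 and 567 RPKM to 1264 and 1288 RPKM. PFKFB3 rose from 6.76 and 10.5 RPKM to 58.6 and 55.3 RPKM and PFKFB4 from 4.03 and 6.92 RPKM to 67.4 and 66.1 RPKM. PFKFB4 again had the highest fold change of the members, 12.4. GAPDH rose from 1087 and 1356 RPKM to 3142 and 2849 RPKM, PGK1 from 173 and 301 RPKM to 1839 and 1632 RPKM and PGAM1 from 94.5 and 118 RPKM to 261 and 270.4 RPKM. ENO1 rose from 365 and 437 RPKM to 1522 and 1430.2 RPKM and PKM from 515 and 609 RPKM to 1693 and 1705 RPKM. All 5 genes of lower glycolysis therefore passed in OC2 cells.

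For lactate, LDHA rose from 798 and 1061 RPKM to 4117 and 4122 RPKM and SLC16A3 from 2.20 and 1.84 RPKM to 4.66 and 4.81 RPKM. PDK1 rose from 8.82 and 9.22 RPKM to 69.6 and 65.1 RPKM, 7.40-fold. Among the glycogen genes PGM1 rose from 10.8 and 11.6 RPKM to 27.6 and 28.2 RPKM and GBE1 from 11.2 and 13.02 RPKM to 26.98 and 27.4 RPKM. UGP2 was at 71.7 and 64.8 RPKM and 71.5 and 66.4 RPKM, and PYGL at 5.19 and 5.05 RPKM and 7.43 and 6.33 RPKM, as in EV cells without a 2-fold change.

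The effect of ONECUT2 itself was then compared within each oxygen level, as siCtrl over siOC2 in PC3 and OC2 over EV in LNCaP, so that a positive value means more transcript with more ONECUT2. In PC3 in normoxia 1 member was higher and 2 were lower with more ONECUT2, where 1.59% of all genes were higher and 3.62% lower, so the members' count is close to the background. SLC2A1 was higher in siCtrl libraries, with a log2 difference of 1.15 (SE 0.37) and an adjusted p of 0.384 in limma. SLC2A3 and PGM1 were lower, with log2 differences of -1.71 (SE 0.65) and -1.03 (SE 0.38) and adjusted p of 0.478 and 0.457. In each of these genes the siCtrl and siOC2 libraries did not overlap, a split that was not counted over all genes, and the siRNAs gave different values. With siRNA1 and siRNA2 the log2 differences were 0.68 and 1.63 for SLC2A1, -2.53 and -0.88 for SLC2A3, and -1.58 and -0.49 for PGM1. Each call was lost without at least 1 library. For SLC2A1 this was siCtrl normoxia replicate 2 (1.11) or siOC2 normoxia replicate 2 (0.68), for SLC2A3 siCtrl normoxia replicate 2 (-1.23) or siOC2 normoxia replicate 1 (-0.88), and for PGM1 siCtrl normoxia replicate 1 (-0.99) or 2 (-1.08) or siOC2 normoxia replicate 1 (-0.49). Of 8 PC3 marker genes S100A2 was also higher with siCtrl in normoxia, the sum of the 8 was between 1033 and 1213 RPKM with siCtrl and 677 and 820.4 RPKM with siOC2, and their part in these results was not tested.

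In PC3 in hypoxia PGK1 was higher with more ONECUT2, 1.06 (SE 0.27) with an adjusted p of 0.175 in limma, and SLC2A3 was lower, -1.80 (SE 0.65) with an adjusted p of 0.317. Over all genes 3.95% were higher and 3.55% lower. PGK1 libraries were at 112 and 87.8 RPKM with siCtrl and 51.5 and 43.9 RPKM with siOC2. They did not overlap, a split that was not counted over all genes. PGK1 lost its call by upper-quartile scaling (0.99) and without siCtrl hypoxia replicate 1 (0.88) or siOC2 hypoxia replicate 2 (0.94), and SLC2A3 without either siCtrl hypoxia library (-1.66 and -1.95) or siOC2 hypoxia replicate 1 (-1.28). At an unadjusted P under 0.05 alone, 11 of 33 members were higher in siCtrl than in siOC2 cells and 1 was lower, where 6.32% of all genes were higher and 5.81% lower. No member had an adjusted p under 0.05 in limma, where 0.0491% of all genes were higher and 0.0409% lower. The median of the members was 0.23 beside 0.03 for all genes. The 11 genes include none of the 4 lactate genes and none of the 3 fructose 2,6-bisphosphate enzymes. They are SLC2A1 at uptake (0.99), PFKP (0.75), ALDOC (0.95) and TPI1 (0.73) in upper glycolysis, and GAPDH (0.69), PGK1 and PKM (0.52) in lower glycolysis. The others are PDK3 (0.61) and the glycogen genes UGP2 (0.65), GBE1 (0.84) and PYGL (0.79). LDHA, with 0.10, and PDK1, with -0.34, were not among them.

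This count of 11 fell when either siCtrl hypoxia library or siOC2 hypoxia replicate 1 was left out. It also fell without either siCtrl normoxia library. Those libraries are not compared here and enter only through the shared estimate of the spread, so their loss leaves the differences themselves unchanged. A fit to the 2 compared groups gave 6 and relative depth as a covariate gave 10. By siRNA, the difference was 0.94 with siRNA1 and 1.17 with siRNA2 for PGK1, and 1.21 and 0.37 for PYGL. The median difference of all genes was 0.28 with siRNA1 and -0.23 with siRNA2, so over all genes the siRNAs differ in sign. Genes outside the route moved with the same groups. Of 8 PC3 marker genes 4 were higher in siCtrl than in siOC2 cells in hypoxia, none of the 8 was under 1 RPKM in a PC3 library, and the sum of the 8 was between 1560 and 1771 RPKM with siCtrl and between 597 and 978 RPKM with siOC2. KRT7, VIM, CD44 and S100A2 are the 4, and their part in the result was not tested.

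The interaction, the hypoxia response with siCtrl less that with siOC2, passed for 1 member in PC3, where 0.696% of all genes passed with a positive and 0.246% with a negative value (85 and 30 genes, or 70 and 49 by upper-quartile scaling). ALDOC had an interaction of 1.42 (SE 0.55) with an adjusted p of 0.9998 in limma. The median interaction of the members, 0.16, did not stand apart from that of all genes, 0.17. For none of the 7 members that passed in siCtrl cells alone did the difference between the responses pass. ALDOC, which rose in both, lost its call when each of 5 of the 8 libraries was left out (0.97 to 1.47). No member had a positive or negative interaction at an adjusted p under 0.05 in limma, and ALDOC alone had one at an unadjusted P under 0.05, where 0.778% of all genes had a positive and 0.254% a negative one.

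**Figure D4:**
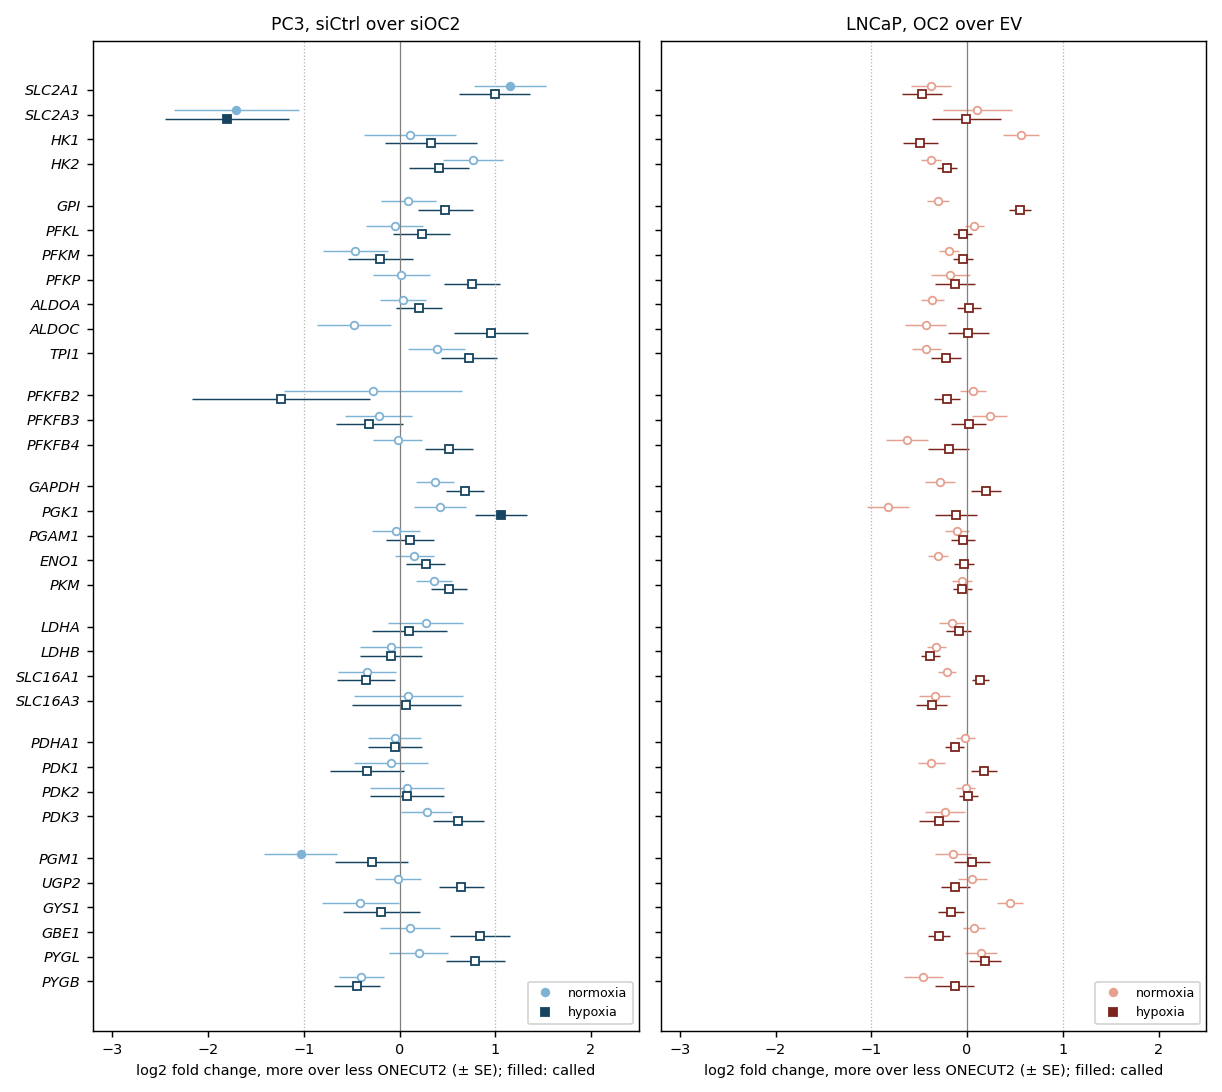
Log2 fold change for more over less ONECUT2 (x axes, with SE bars) of the 33 members (y axis), in PC3 as siCtrl over siOC2 (left) and in LNCaP as OC2 over EV (right), in normoxia (circles) and hypoxia (squares). Filled symbols passed the test. SLC2A1, SLC2A3 and PGM1 in normoxia and SLC2A3 and PGK1 in hypoxia are filled in PC3, and none is filled in LNCaP.

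In LNCaP none of 33 members passed the test between OC2 and EV cells in normoxia, where 2.81% of all genes were higher and 0.48% lower, or in hypoxia, where 3.7% were higher and 0.773% lower. In normoxia 2 members were higher and 10 lower at an unadjusted P under 0.05 in limma, where 9.54% and 14.6% of all genes were. By upper-quartile scaling, which moved the median of all genes from -0.08 to 0.04, these were 2 higher and 3 lower members, and over all genes 1814 were higher and 804 lower in place of 1172 and 1794. HK1 and GYS1 were the 2 higher ones, by 0.56 (SE 0.18) and 0.45 (SE 0.13). PGK1 had the largest negative value, -0.82 (SE 0.22), with 173 and 301 RPKM in OC2 and 386 and 421 RPKM in EV libraries. In hypoxia GPI was higher by 0.55 (SE 0.12) (adjusted p = 0.0212 in limma), at 664 and 622 RPKM with OC2 and 433 and 441 RPKM with EV. LDHB was lower, at -0.38 (SE 0.10) (adjusted p = 0.0445), at 353 and 383 RPKM with OC2 and 468 and 491 RPKM with EV. The OC2 and EV libraries did not overlap for either gene, a split that was not counted over all genes. For all genes the shares at an adjusted p under 0.05 in limma were 6.72% higher and 4.82% lower. By upper-quartile scaling GPI alone kept an adjusted p under 0.05, and over all genes 1155 were higher and 386 lower in place of 826 and 592. None of 8 LNCaP marker genes passed the test between the same groups. At an unadjusted P under 0.05, 6 of 8 were lower with OC2 at each oxygen level, beside 14.6% of all genes in normoxia and 13.5% in hypoxia. Of the 6, 3 had an adjusted p under 0.05 in hypoxia and none in normoxia in limma. None of the 8 markers was under 1 RPKM. Their sum was between 3539 and 3572 RPKM with EV and 3066 and 3161 RPKM with OC2 in normoxia, and between 5944 and 6274 RPKM with EV and 4411 and 4606 RPKM with OC2 in hypoxia. Their part in these results was not tested.

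The interaction in LNCaP, the hypoxia response with OC2 less that with EV, passed for 1 member with a negative value, where 1.35% of all genes passed, and for none with a positive value, where 2.34% did. HK1 had -1.05 (SE 0.26) with an adjusted p of 0.127 in limma. It was higher with OC2 in normoxia and lower with OC2 in hypoxia. The groups did not overlap at either oxygen level, a split that was not counted over all genes. GPI had the opposite pattern, an interaction of 0.86 (SE 0.16) under the limit of 2 (adjusted p = 0.0838). HK2, the other hexokinase, had an interaction of 0.17 (SE 0.15) that did not pass. The HK1 call was lost without EV normoxia replicate 2 (-0.91), EV hypoxia replicate 2 (-0.88) or OC2 normoxia replicate 1 (-0.79). At an unadjusted P under 0.05 there were 3 members with a positive and 2 with a negative interaction, where 10.3% and 6.55% of all genes had one. None had an adjusted p under 0.05 in limma, where 0.106% and 0.138% of all genes did.

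Beside the members, 72 further genes of glucose, lactate and glycogen metabolism were in the tables, and 48 of them were tested in each line. In PC3 siCtrl hypoxia 1 of 48 was higher and none lower, beside 2.23% and 1.63% of all genes. In LNCaP EV hypoxia 4 of 48 were higher and 1 lower, beside 5.6% and 2.34%, and 8 were higher and 4 lower at an adjusted p under 0.05 in limma, beside 18.2% and 14.1%. ENO2, the neuronal enolase, rose in both, from 19.7 and 20.6 RPKM to 106 and 97.97 RPKM in siCtrl and from 5.16 and 11.9 RPKM to 68.3 and 57.8 RPKM in EV libraries. Its fold changes were 5.04 and 7.92, with adjusted p of 0.0285 and 4.96e-04 in limma. PCK2, the mitochondrial enzyme of gluconeogenesis, fell in EV cells, with a log2 fold change of -1.10 (SE 0.21). That value was between -1.44 and -0.77 when 1 library at a time was left out. In siOC2 cells PCK2 was at 2.78 and 1.10 RPKM in normoxia and 0.356 and 0.904 RPKM in hypoxia. In PC3 it reached 1 RPKM only in normoxic libraries, and this is a description. The transporter SLC2A10, which reached 1 RPKM only in the EV hypoxia libraries and is likewise a description, was at 0.429 and 0.344 RPKM with EV in normoxia and 1.06 and 1.31 RPKM in hypoxia. Its place in the count of 4 is a description as well. The glycogen phosphatase subunits PPP1R3E and PPP1R3F rose in EV cells by 1.23 (SE 0.11) and 1.01 (SE 0.17). PPP1R3B rose in OC2 cells by 1.09 (SE 0.16). In siOC2 cells ENO2 rose by 1.63 (SE 0.31) and PPP1R3E fell, with a log2 fold change of -1.38 (SE 0.40).

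With more ONECUT2, 2 of 48 further genes were higher and 2 lower in PC3 normoxia, beside 1.59% and 3.62% of all genes. In PC3 hypoxia 3 were higher and 1 lower, beside 3.95% and 3.55%. SLC16A7 (MCT2), a transporter with high affinity for pyruvate, was higher with more ONECUT2 at both oxygen levels, by 1.18 (SE 0.39) and 1.59 (SE 0.39). With 1 library at a time left out it was between 0.88 and 1.48 in normoxia and between 1.45 and 1.73 in hypoxia. The transporter SLC2A12 and the hexokinase-like gene HKDC1 reached 1 RPKM only in the group where they are high. Their values, and their places in these counts, are a description. SLC2A12 was at 1.28 and 1.67 RPKM with siCtrl and 0.449 and 0.254 RPKM with siOC2 in normoxia, and at 1.24 and 1.19 RPKM and 0.456 and 0.200 RPKM in hypoxia. HKDC1 was at 0 and 0.0952 RPKM with siCtrl and 0.569 and 1.54 RPKM with siOC2 in normoxia. GPD2, the mitochondrial glycerol 3-phosphate dehydrogenase, was higher in hypoxia by 1.09 (SE 0.29) and PPP1R3F lower, at -1.54 (SE 0.50). PPP1R3E was lower in normoxia, at -1.22 (SE 0.40), and had an interaction of 1.89 (SE 0.57). Leaving out 1 library at a time gave 0.91 to 1.28 for GPD2 and -1.86 to -1.23 for PPP1R3F in hypoxia. For PPP1R3E it gave -1.72 to -0.73 in normoxia and 1.39 to 2.38 for the interaction. No further gene had an adjusted p under 0.05 with ONECUT2 in PC3.

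In LNCaP 1 of 48 further genes was higher with OC2 and none lower at each oxygen level, beside 2.81% and 0.48% of all genes in normoxia and 3.7% and 0.773% in hypoxia. The gene was PKLR in both. PKLR, the liver and red cell pyruvate kinase, was at 0.0106 and 0.0437 RPKM in EV and 1.54 and 1.06 RPKM in OC2 libraries in normoxia. In hypoxia PKLR was at 0.0220 and 0.0386 RPKM in EV and 0.677 and 0.472 RPKM in OC2 libraries. It reached the 1 RPKM needed for testing only in the OC2 normoxia libraries, so its difference between OC2 and EV cells is a description and no test is given. The count of 1 at each oxygen level is a description for the same reason. PKLR stayed far below PKM, which was at 515 and 609 RPKM in the OC2 libraries in normoxia.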

How the data were processed

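RNA-Seq of PC3 and LNCaP cells was analysed from 16 libraries, 2 in each of 4 groups per line, and the 12 ChIP-Seq samples of the series were not used here. The deposited values are RPKM per gene symbol, 1 table per line. To make them, the authors mapped stranded mRNA reads to the hg19 genome (STAR 2.4.2a) and ran Cufflinks 2.1.1 with GENCODE annotation. Read depth per library is not given in the sources used here, so it was estimated relative to 1 library per line, and no counting interval was computed. Groups were taken from the sample labels.

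Each line was fitted with limma 3.58.1 (R 4.3.3) on log2(RPKM + 0.1) with a mean-variance trend, 4 groups and no block, for genes that reached 1 RPKM in 2 or more of the 8 libraries. The limits for a call were those of the study, more than 2-fold and unadjusted P under 0.05 (two-sided). Benjamini-Hochberg adjusted p-values over all genes tested stand beside it. The responses of the lines were compared in 1 fit to all 16 libraries. ONECUT2 differences are coded as more over less ONECUT2. The script was tested on simulated data.

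The members, their roles and the further gene lists were chosen with earlier results of these data known, so no list was tested as a whole. Values in every library are printed for members called in a control-cell hypoxia comparison, with ONECUT2 or in an interaction. From the further genes, those called in at least 1 comparison are named, up to 8 per line by size of the fold. Alternatives were a pseudocount of 1, no filter or a filter of 5 RPKM, upper-quartile scaling, adjusted p-values, a fit to the compared groups, a replicate block and leaving out each library. A crossed block, an siRNA term and relative depth as a covariate were added after seeing the data.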

Additional observations from a re-analysis of the deposited data

Results flagged for a closer look

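Each of the following 6 values is a difference between the hypoxia responses of 2 groups that passed the test of that difference in limma (fold over 2 and unadjusted P under 0.05), and none had an adjusted p under 0.05. The ALDOC response differed between siCtrl and siOC2 PC3 cells by 1.42 (SE 0.55, unadjusted P = 0.0304). The HK1 response differed between OC2 and EV LNCaP cells by -1.05 (SE 0.26, unadjusted P = 0.00361). Between PC3 siCtrl and LNCaP EV cells the response was larger in PC3 for ALDOC, by 1.46 (SE 0.45, unadjusted P = 0.00751), and for UGP2, by 1.07 (SE 0.27, unadjusted P = 0.00165). It was smaller in PC3 for PFKFB3, by -1.31 (SE 0.41, unadjusted P = 0.00729), and for PFKP, by -1.04 (SE 0.37, unadjusted P = 0.0161).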

How the results depend on the processing

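Of 80 member calls over the comparisons, 24 were lost and none reversed under at least 1 alternative fit in which they were tested, apart from the rule on adjusted p, which is given as counts. The crossed block and the siRNA term were run in PC3 and tested 35 of the 80, and the filter of 5 RPKM tested 74. The 20 calls in EV hypoxia and the 20 in OC2 hypoxia were as many at an adjusted p under 0.05 added to the fold limit. In PC3 this rule left 2 of 18 members in siCtrl hypoxia, 0 of 11 in siOC2 hypoxia and 0 with ONECUT2 at either oxygen level, and it left 0 in both interactions and 0 for the difference between lines, in limma. With ONECUT2 in PC3 normoxia 1 member in place of 3 was called with a pseudocount of 1 or with no filter on low values. In PC3 hypoxia 1 in place of 2 was called with no filter, a filter of 5 RPKM or upper-quartile scaling. Relative depth as a covariate left 0 members in the PC3 interaction and 0 in the LNCaP interaction.

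Leaving out 1 library at a time gave 15 to 19 called members in siCtrl hypoxia, 7 to 16 in siOC2 hypoxia, 18 to 21 in EV hypoxia and 20 to 21 in OC2 hypoxia. With ONECUT2 it gave 0 to 3 in PC3 normoxia and 0 to 4 in PC3 hypoxia, and 0 to 2 in LNCaP normoxia and 0 in LNCaP hypoxia. The interactions had 0 to 4 in PC3 and 0 to 3 in LNCaP, and the difference between lines 2 to 5. Where a library was left out, the lone library of its group was assumed to vary like the other groups. The cause of these shifts was not tested.

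With the replicate number as a block, 19, 12, 3, 2 and 1 members were called in PC3 (siCtrl and siOC2 hypoxia, ONECUT2 in normoxia and hypoxia, interaction), 20, 20, 0, 0 and 1 in the same order in LNCaP, and 4 for the difference between lines. For the siCtrl libraries the numbers do not pair the samples. The correlation of deviations between libraries of 1 number was -0.19 for the siCtrl groups and -0.11 for siCtrl and siOC2 in normoxia. It was 0.62 for the siOC2 groups, where a number stands for an siRNA and does pair the libraries. The main fit has no term for this pairing. With the siRNA term, 20, 12, 3, 3 and 1 members were called in PC3, in the same order. In LNCaP the correlation was 0.27 for EV and OC2 in hypoxia, -0.03 for the EV groups and -0.06 for the OC2 groups.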
